A study of Mus musculus with 24 samples.

Results

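Klra17, Klra2, Klrd1, Klrk1 and Klrb1b are 5 killer lectin-like receptor genes of the mouse, and their RNA was followed in dendritic cells sorted from the spleen. They were taken by symbol from the table of raw counts, as 5 of the 39017 genes in it, and all 5 passed the filter on low counts together with the rest of the 18093 genes tested. The table holds 24 libraries of 5 dendritic cell subsets from mice of a C57BL/6 x FVB/N F1 background that carried either 1 Flt3 allele with an internal tandem duplication (genotype Flt3 ITD/+, here ITD) or none (Flt3 +/+, here WT). The subsets were plasmacytoid dendritic cells (PDC, 2 ITD and 2 WT libraries, batches A and B), canonical CD8+ cells (C_CD8, 3 ITD and 3 WT, batches B, C and D), non-canonical CD8+ cells (NC_CD8, 3 ITD and 3 WT, batches B, C and D), Esam-hi CD11b+ cells (Esamhi, 2 ITD and 2 WT, batches C and D) and Esam-lo CD11b+ cells (Esamlo, 2 ITD and 2 WT, batches C and D). A batch is the experiment batch of the labels, and each subset in a batch has 1 ITD and 1 WT library, which makes 12 pairs. The labels name neither a Cre line nor a treatment, do not say whether animals were pooled, and give no ages. Only batch B holds both PDC and other subsets, and no batch holds both PDC and CD11b+ cells.

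Library totals ran between 11197145 and 22248404 counts, and levels are given in CPM, counts scaled to a common library size after TMM normalization. Siglech, Xcr1, Cd8a and Esam lay where the labels put them, while some other listed markers did not. Siglech, a PDC receptor, ran at 4508 to 5386 CPM in PDC, against at most 291 CPM in the other subsets. Xcr1, the chemokine receptor of type 1 dendritic cells, ran at 574 to 1222 CPM in C_CD8 cells and at 6.95 to 148 CPM in NC_CD8 cells, both of which held Cd8a (462 to 693 CPM and 243 to 383 CPM). Esam was at 57.7 to 68.8 CPM in Esamhi cells, against 3.93 to 14.3 CPM in Esamlo cells. Cd209a, listed for CD11b+ cells, ran at 634 to 948 CPM in Esamlo and 209 to 336 CPM in Esamhi cells. It also ran at 541 to 581 CPM in PDC and 430 to 632 CPM in NC_CD8 cells. The 8 type 1 markers summed to 4289 to 6946 CPM in PDC and 3615 to 7144 CPM in C_CD8 cells. Counts per gene cannot show the duplication in Flt3, so the genotypes were not checked here.

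Killer lectin-like receptors are C-type lectin-like membrane proteins best known from natural killer (NK) cells, where inhibitory members read MHC class I or lectin-like ligands through phosphatase-recruiting motifs and activating members signal through adaptor proteins. Klra17 encodes Ly49Q, an inhibitory Ly49 receptor for the class I molecule H-2K that is known from PDC and other myeloid cells rather than from NK cells. Klra2 encodes Ly49B, an inhibitory Ly49 receptor of myeloid cells. Klrd1 encodes CD94, which pairs with NKG2 proteins such as those of Klrc1 and Klrc2 to bind Qa-1. Klrk1 encodes NKG2D, the activating receptor for the stress ligands of the Raet1, H60 and Ulbp1 families, and Klrb1b encodes NKR-P1B, an inhibitory receptor for the lectin-like molecule Clr-b (Clec2d).

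All 5 genes lie on chromosome 6 in the mm10 build and are protein coding. In the GENCODE M21 annotation Klrb1b spans chr6:128813706-128826331 on the minus strand, Klrd1 chr6:129591782-129598775 on the plus strand, Klrk1 chr6:129610323-129623864 on the minus strand, Klra17 chr6:129831154-129876672 on the minus strand and Klra2 chr6:131219223-131247362 on the minus strand. In the exons of Klra17, Klra2, Klrd1 and Klrk1 no 50-base word occurred in an exon of another gene, so near-identical copies had no full 50-base stretch to share with them. For Klrb1b 27.2% of such words did, mainly in Gm44511, which overlaps 599 bases of its exons on the same strand and has no row in the count table. Its counts are therefore less certain. The mice carry 1 FVB/N haplotype of the Ly49 region while mm10 is a C57BL/6 genome, and what that did to the counts was not tested.

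Klra17 and Klra2 are shown first by their promoters, because these related Ly49 genes were highest in different subsets. The windows run from 250 bases before to 50 bases after the RefSeq start in GRCm38.p6, chr6:129876623-129876922 for Klra17 and chr6:131247313-131247612 for Klra2, both on the minus strand. Capitals mark the 1 match to CANNTG, the E-box letters, in the Klra17 window and the letters aligned with it in the Klra2 window:

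Klra17: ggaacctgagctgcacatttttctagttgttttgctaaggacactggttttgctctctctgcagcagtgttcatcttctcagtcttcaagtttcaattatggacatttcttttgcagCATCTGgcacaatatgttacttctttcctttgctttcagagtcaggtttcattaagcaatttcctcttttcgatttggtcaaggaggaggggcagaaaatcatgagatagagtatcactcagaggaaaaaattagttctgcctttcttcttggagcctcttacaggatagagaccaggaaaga

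Klra2: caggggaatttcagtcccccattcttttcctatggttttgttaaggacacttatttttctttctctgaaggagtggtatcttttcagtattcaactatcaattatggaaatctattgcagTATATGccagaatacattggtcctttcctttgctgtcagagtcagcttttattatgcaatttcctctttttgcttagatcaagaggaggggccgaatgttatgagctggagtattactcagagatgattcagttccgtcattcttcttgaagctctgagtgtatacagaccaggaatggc

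The windows were identical at 74.6% of 307 alignment columns. The CANNTG letters read the same on both strands and are common, since 72.3% of the 32851 RefSeq promoter windows hold them, and the Klra2 window has none. AGGAAG, searched on both strands, was in neither window, against 35.4% of all windows. These matches describe letters only.

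RNA of all 5 receptors differed among the subsets, and each gene had its own order. Klra17 was highest in PDC and NC_CD8 cells and lowest in C_CD8 cells. Klrd1 was high in every subset except C_CD8 cells. Klrk1 was high in both CD8+ subsets and in Esamlo cells and low in PDC, while Klra2 and Klrb1b were highest in Esamlo cells. The test over the 5 subsets (edgeR quasi-likelihood, Benjamini-Hochberg adjustment over all 18093 genes, called under 0.05) called 5 of 5 members, beside 67.3% of all genes, so a call by itself sets none of them apart. Of the 50 tests of 1 member between 2 subsets 34 were called, and the share of all genes called differed much between the contrasts. It was 52.3% for PDC against C_CD8, 46.2% for PDC against Esamhi, 43.6% for PDC against Esamlo and 42.9% for NC_CD8 against PDC. It was 42.5% for NC_CD8 against C_CD8, 37.1% for C_CD8 against Esamhi, 27.5% for C_CD8 against Esamlo, 18.5% for NC_CD8 against Esamhi, 13.5% for NC_CD8 against Esamlo and 3.32% for Esamhi against Esamlo. With the batch as a block it was 52.2% for NC_CD8 against PDC, 55.3% against C_CD8, 29.4% against Esamhi and 27.6% against Esamlo. In sorted bulk samples a smaller share of expressing cells and less RNA per cell cannot be told apart.

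**Figure D1:**
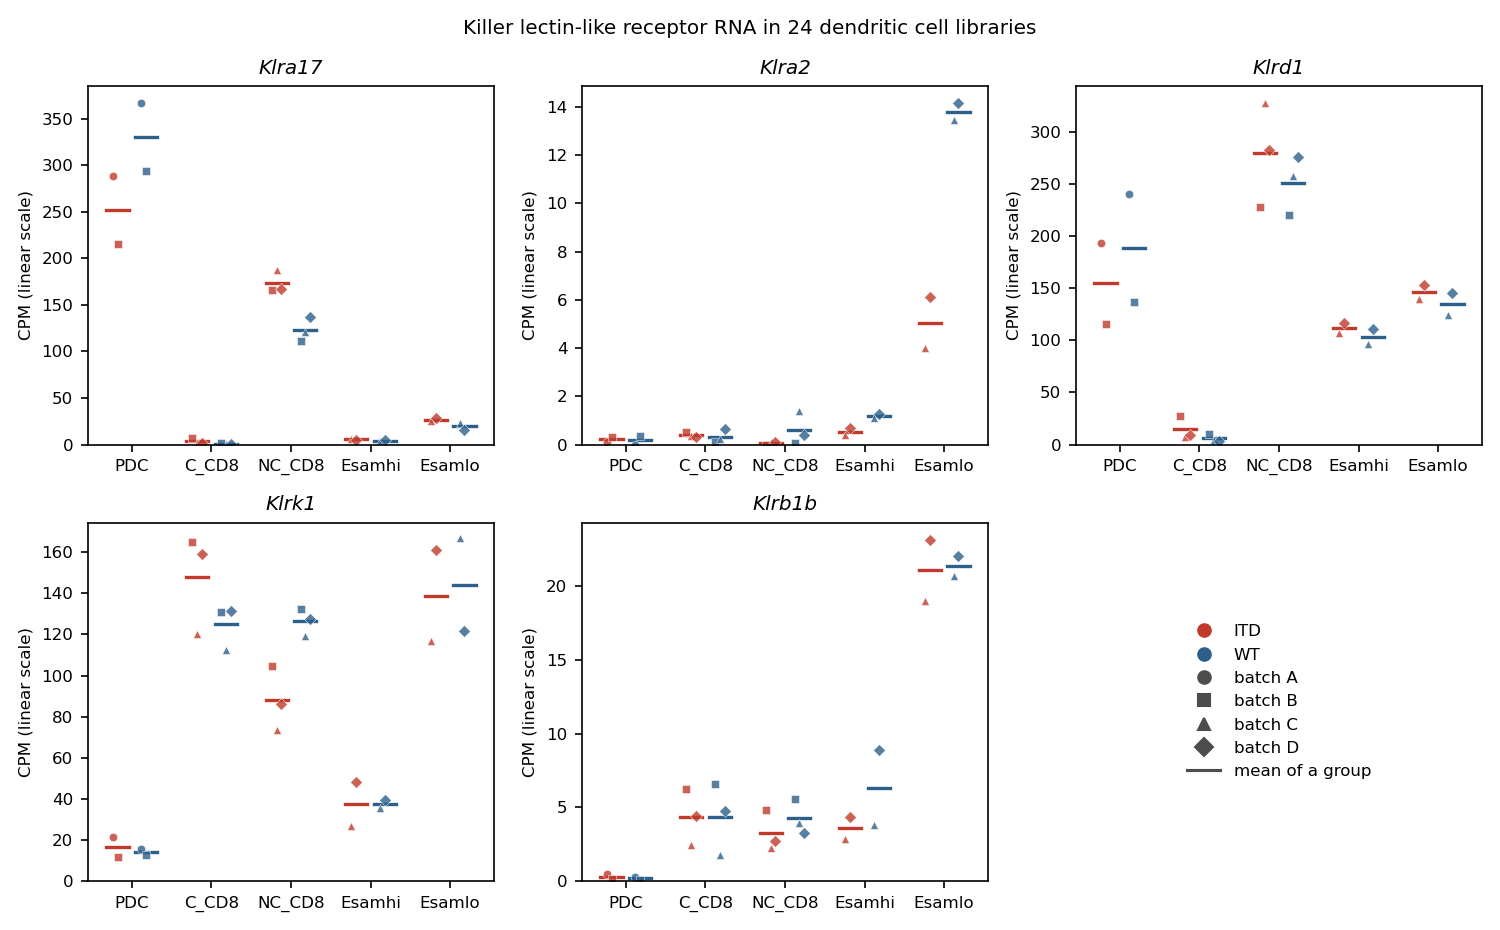
CPM of each receptor (y axis, linear, 1 panel a gene) in the 24 libraries by subset (x axis), with ITD libraries in red left of WT libraries in blue, the marker shape giving the batch and the bar the mean of a group. Klra17 stands at 112 CPM or more in every PDC and NC_CD8 library, and Klra2 and Klrb1b are highest in the 4 Esamlo libraries.

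Klra17 in PDC had 288 and 216 CPM in ITD libraries (batches A and B) and 367 and 293 CPM in WT libraries. In NC_CD8 cells it had 166, 187 and 167 CPM in ITD libraries (batches B, C and D) and 112, 120.5 and 137 CPM in WT libraries. Every PDC library lay above every NC_CD8 library. The gap was called (log2 difference -0.98 ± 0.33, adjusted p = 0.0232), but not with the batch as a block (log2 difference -0.47 ± 0.38, adjusted p = 0.326). The call also ended without the batch A library of PDC of either genotype, and without the 4 libraries with at least 5 CPM of the NK cell gene Ncr1. In the latter fit the difference was -1.05, and only the batch B library was left of the WT NC_CD8 libraries. With ITD libraries alone the difference was -0.54 (adjusted p = 0.432). In Esamlo cells Klra17 had 25.6 and 28.1 CPM in ITD libraries (batches C and D) and 23.5 and 15.4 CPM in WT libraries. In Esamhi cells it had 6.38 and 4.63 CPM in ITD libraries and 3.43 and 5.19 CPM in WT libraries. C_CD8 cells were lowest, with 5 of 6 libraries under the lowest Esamhi library and the ITD library of batch B above the 4 Esamhi libraries. There Klra17 had 7.32, 1.83 and 1.19 CPM in ITD libraries (batches B, C and D), or 96, 35 and 20 reads, and 2.03, 0.335 and 0.989 CPM in WT libraries, or 39, 7 and 19 reads. NC_CD8 cells exceeded C_CD8 cells (log2 difference 6.24 ± 0.40, adjusted p = 1.31e-09) and Esamlo cells (log2 difference 2.68 ± 0.38, adjusted p = 0.000101), and all 10 pairs of subsets were called. The smallest distance between neighbours at the low end, C_CD8 against Esamhi (log2 difference -1.34 ± 0.40, adjusted p = 0.0135), was lost with the ITD libraries alone and without the batch D library of WT or the batch C library of ITD Esamhi cells. The step between the CD11b+ subsets (log2 difference -2.23 ± 0.41, adjusted p = 0.00409) was not called with only the WT or only the ITD libraries in the contrast, or without the 4 Ncr1-rich libraries.

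Klra2, the other Ly49 gene, was low and found mainly in Esamlo cells. In Esamlo cells it had 4.003 and 6.12 CPM in ITD libraries (batches C and D) and 13.4 and 14.2 CPM in WT libraries. In Esamhi cells it had 0.395 and 0.680 CPM in ITD libraries and 1.09 and 1.27 CPM in WT libraries. All 4 Esamlo libraries lay above all other libraries. The other 16 libraries held between 0 and 28 reads of Klra2, and in NC_CD8 cells the 28 reads, at 1.38 CPM, came from the WT library of batch C, which also had the highest Ncr1 level of that subset. Esamhi cells fell below Esamlo cells (log2 difference -3.39 ± 0.74, adjusted p = 0.0136), a call that was lost in 5 of the 24 fits that leave out 1 library (each Esamhi library and the batch D library of ITD Esamlo cells), without the Ncr1-rich libraries and with either genotype alone, with differences between -3.60 and -3.21 in these fits. C_CD8, NC_CD8 and PDC were not told apart from each other (log2 difference -0.66 ± 0.71, adjusted p = 0.486 for NC_CD8 against C_CD8; log2 difference 0.24 ± 0.95, adjusted p = 0.867 for NC_CD8 against PDC). PDC against Esamhi was called (log2 difference -2.04 ± 0.81, adjusted p = 0.0470), but with the batch as a block the difference turned (log2 difference 0.29 ± 0.97, adjusted p = 0.826), and these subsets share no batch. That call was also lost in 7 of the 24 fits that leave out 1 library (any Esamhi library, or any PDC library except WT of batch B), with either genotype alone and without the 4 Ncr1-rich libraries.

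Klrd1, the CD94 gene, was abundant in 4 of the 5 subsets. In NC_CD8 cells it had 228, 328 and 283 CPM in ITD libraries (batches B, C and D) and 220.0, 258 and 276 CPM in WT libraries. In PDC it had 193 and 116 CPM in ITD libraries (batches A and B) and 241 and 137 CPM in WT libraries. PDC libraries of batch A were above those of batch B in both genotypes, and only the PDC library of WT mice in batch A came into the range of the NC_CD8 libraries. In Esamlo cells Klrd1 had 140.1 and 153 CPM in ITD libraries (batches C and D) and 124 and 146 CPM in WT libraries. In Esamhi cells it had 107 and 117 CPM in ITD libraries and 96.6 and 111 CPM in WT libraries. The order NC_CD8, PDC, Esamlo, Esamhi had no called step between neighbours, although NC_CD8 against Esamhi was called (log2 difference 1.30 ± 0.32, adjusted p = 0.00727; not with the WT libraries alone, the ITD libraries alone or without the 4 libraries with at least 5 CPM of Ncr1). With the batch as a block NC_CD8 cells exceeded PDC (log2 difference 1.43 ± 0.37, adjusted p = 0.00434; without the block, log2 difference 0.63 ± 0.31, adjusted p = 0.109) and Esamlo cells (log2 difference 0.80 ± 0.25, adjusted p = 0.0258; without the block, log2 difference 0.91 ± 0.31, adjusted p = 0.0613). C_CD8 cells stood apart at the bottom. They had 27.2, 7.63 and 9.37 CPM in ITD libraries (batches B, C and D) and 10.1, 4.74 and 3.85 CPM in WT libraries. They were below Esamhi cells (log2 difference -3.49 ± 0.32, adjusted p = 1.43e-07 for C_CD8 against Esamhi) and below NC_CD8 cells (log2 difference 4.79 ± 0.32, adjusted p = 2.53e-09 for NC_CD8 against C_CD8).

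Klrk1, the NKG2D gene, was high in C_CD8 cells, where Klra17 and Klrd1 were lowest. In C_CD8 cells it had 165, 120.0 and 159 CPM in ITD libraries (batches B, C and D) and 131, 113 and 131 CPM in WT libraries. In Esamlo cells it had 117 and 161 CPM in ITD libraries (batches C and D) and 167 and 122 CPM in WT libraries. These ranges overlapped, and C_CD8 against Esamlo was not called (log2 difference -0.06 ± 0.18, adjusted p = 0.864). NC_CD8 cells had 104, 73.3 and 86.2 CPM in ITD libraries (batches B, C and D) and 132, 119 and 127 CPM in WT libraries. Against C_CD8 cells NC_CD8 cells were not called (log2 difference -0.37 ± 0.17, adjusted p = 0.0845), but they were lower with the block (log2 difference -0.37 ± 0.12, adjusted p = 0.0158) and with the ITD libraries alone (-0.75, adjusted p = 0.0244), while the WT libraries alone gave 0.0174 (adjusted p = 0.973). With the block they were also below Esamlo cells (log2 difference -0.51 ± 0.14, adjusted p = 0.0126; without the block, log2 difference -0.42 ± 0.18, adjusted p = 0.150). In Esamhi cells Klrk1 had 26.8 and 48.2 CPM in ITD libraries (batches C and D) and 35.5 and 39.3 CPM in WT libraries. In PDC it had 21.5 and 11.5 CPM in ITD libraries (batches A and B) and 15.6 and 12.7 CPM in WT libraries. Both steps down were called, for Esamhi against Esamlo (log2 difference -1.92 ± 0.21, adjusted p = 4.88e-05) and for PDC against Esamhi (log2 difference -1.29 ± 0.21, adjusted p = 6.30e-05).

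Klrb1b, the NKR-P1B gene, was highest in Esamlo cells, with 19.0 and 23.2 CPM in ITD libraries (batches C and D) and 20.7 and 22.1 CPM in WT libraries. In Esamhi cells it had 2.88 and 4.33 CPM in ITD libraries and 3.77 and 8.87 CPM in WT libraries. In C_CD8 cells it had 6.26, 2.46 and 4.41 CPM in ITD libraries (batches B, C and D) and 6.61, 1.77 and 4.74 CPM in WT libraries. Esamhi and both CD8+ subsets overlapped and no step between them was called, while Esamlo stood above them all. NC_CD8 cells had 4.81, 2.21 and 2.71 CPM in ITD libraries and 5.58, 3.94 and 3.29 CPM in WT libraries. In PDC there were 10 and 2 reads in ITD libraries (batches A and B) and 6 and 2 reads in WT libraries, the lowest levels of any subset. Esamhi against Esamlo was called (log2 difference -2.15 ± 0.43, adjusted p = 0.00748; not with the WT or the ITD libraries alone, without the 4 Ncr1-rich libraries, or without either batch C library of Esamhi cells), as was NC_CD8 against PDC (log2 difference 3.92 ± 0.51, adjusted p = 6.52e-06). With the batch as a block NC_CD8 cells were also below Esamhi cells (log2 difference -0.64 ± 0.22, adjusted p = 0.0410; without the block, log2 difference -0.36 ± 0.38, adjusted p = 0.587).

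In Esamhi against Esamlo cells 4 of 5 members were called lower, beside 2.05% of all genes, and the fifth member, Klrd1, was not called (log2 difference -0.39 ± 0.33, adjusted p = 0.657). All 4 of those calls held with the block, beside 7.64% of all genes called lower. Those of Klra17, Klra2 and Klrb1b were lost with either genotype alone and without the Ncr1-rich libraries. The members were chosen with earlier results of these data known, so the share describes these 5 genes only. In NC_CD8 against C_CD8 cells 2 of 5 members were called higher and 0 lower, beside 20.5% of all genes called higher. Levels were also divided by the length of all annotated exons of a gene, 7183 bases for Klrk1 and 1281 for Klrd1. Which of these exons the transcripts in these cells hold was not tested, so comparing genes this way is rough. Per kilobase of exon PDC had a mean level of 244 CPM per kb of Klra17, 134 of Klrd1, 2.13 of Klrk1, 0.109 of Klrb1b and 0.101 of Klra2, as means of the 2 genotypes. C_CD8 cells had 19.0 CPM per kb of Klrk1, 8.19 of Klrd1, 1.96 of Klrb1b, 1.92 of Klra17 and 0.190 of Klra2. Esamlo cells had 109.9 CPM per kb of Klrd1, 19.7 of Klrk1, 19.4 of Klra17, 9.53 of Klrb1b and 4.97 of Klra2. NC_CD8 cells had 207 CPM per kb of Klrd1, 124 of Klra17 and 14.9 of Klrk1, and Esamhi cells 84.1 of Klrd1, 5.21 of Klrk1 and 4.12 of Klra17. Of the 5 members the highest per length was thus Klra17 in PDC, Klrk1 in C_CD8 cells and Klrd1 in NC_CD8, Esamhi and Esamlo cells. In Esamlo cells that order rests on the length, since Klrk1 and Klrd1 had mean levels of 141.5 and 140.8 CPM.

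Sorted dendritic cells can carry RNA of NK cells, so Ncr1, the NK cell receptor NKp46, and Gzma, the cytotoxic granule protease granzyme A, were read beside the members. Ncr1 had no read in 6 of 24 libraries, Gzma none in 4, and 2 libraries had no read of either. In PDC the ITD libraries (batches A and B) held 2 and 0 reads of Ncr1 and 6 and 0 of Gzma, and the WT libraries held 2 and 0 of Ncr1 and 6 and 4 of Gzma. The same PDC libraries held 4034 to 8260 reads of Klra17 and 2169 to 5415 of Klrd1. In PDC these 2 NK markers were thus at or near 0, while these 2 receptors were high.

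NC_CD8 cells gave the widest range of NK marker levels. Ncr1 had 0, 34 and 0 reads in ITD libraries (batches B, C and D) and 0, 218 and 111 reads in WT libraries, and Gzma had 0, 11 and 2 in ITD and 5, 139 and 270 in WT libraries. Between the WT library of batch C, with 218 reads of Ncr1, and that of batch B, with 0, Klra17 differed 1.08-fold, Klrd1 1.17-fold, Klrk1 0.901-fold and Klrb1b 0.705-fold. Those 4 members thus had like levels in a library with no read of Ncr1. Klra2 did differ, 28 reads against 1, while the WT library of batch D, with 111 reads of Ncr1, had 6. Klrc1, which encodes NKG2A, had 347 reads in the batch C library against 9 in the batch B library, and Klrc2, which encodes NKG2C, had 296 against 10. Among Esamlo libraries the WT library of batch C had 206 reads of Ncr1 and the ITD library of batch D had 15. Klra17, Klrd1, Klrk1 and Klrb1b differed 0.837-, 0.814-, 1.04- and 0.894-fold between them, while Klra2 differed 2.20-fold. These 2 libraries also differ in genotype and batch. Between the WT Esamlo libraries of batches C and D, Ncr1 was 12.3 and 4.58 CPM and Klra2 13.4 and 14.2 CPM.

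**Figure D2:**
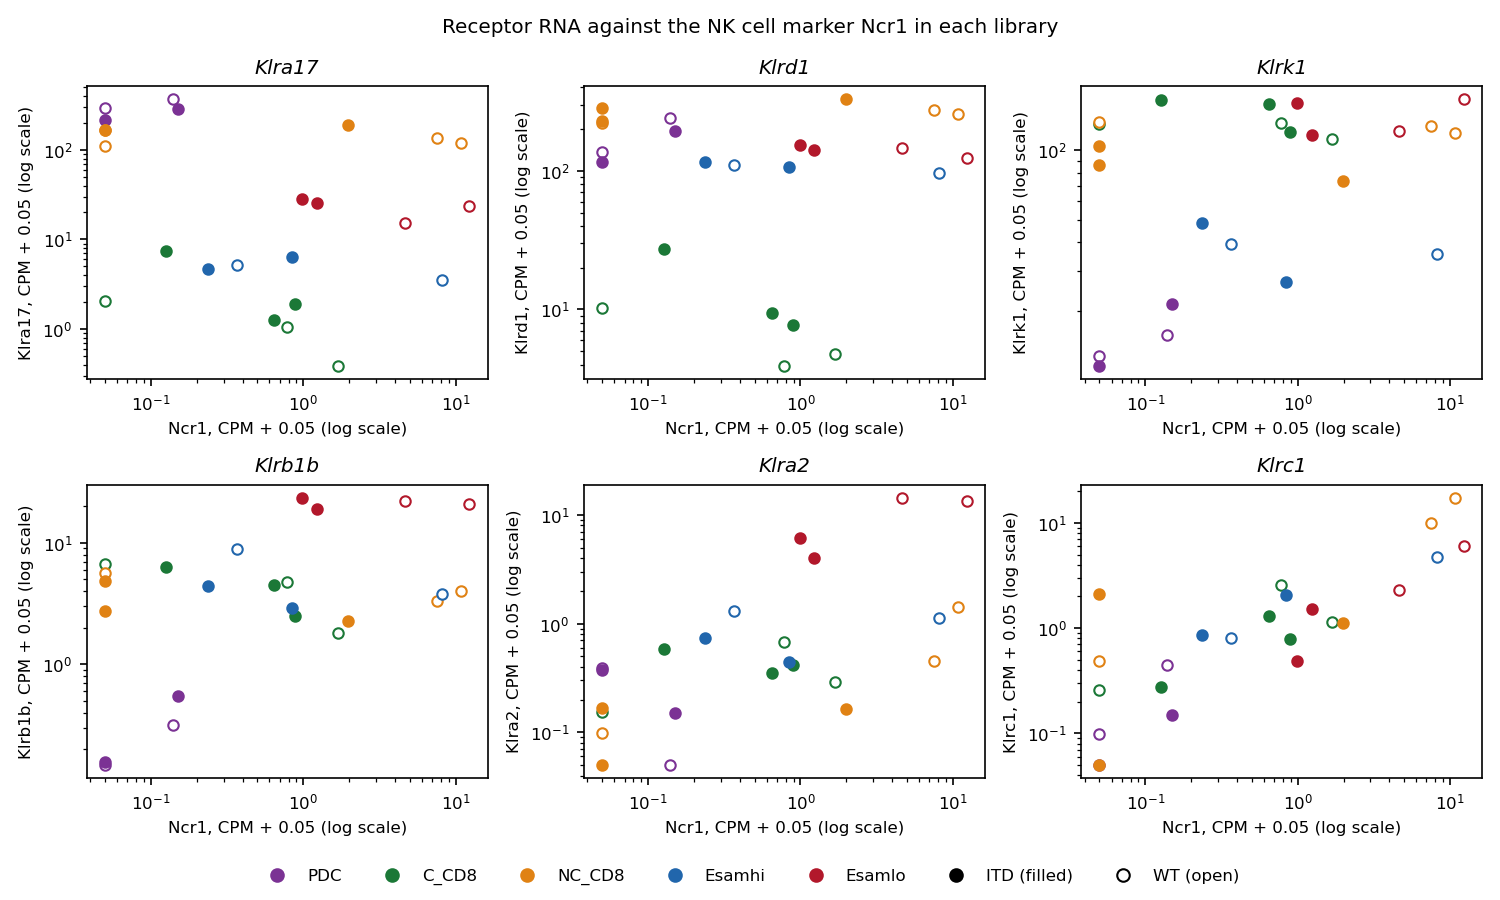
Receptor CPM (y axis, log scale, 0.05 added) against Ncr1 CPM (x axis, log scale, 0.05 added) in the 24 libraries, coloured by subset, filled for ITD and open for WT. The NC_CD8 libraries of WT mice with 10.7 and 0 CPM of Ncr1 have 120.5 and 112 CPM of Klra17 and 258 and 220.0 CPM of Klrd1, and the 2 C_CD8 libraries with the least Ncr1 have the most of both, while Klrc1, shown for contrast, is highest (17.1 CPM) in the library of NC_CD8 cells with 10.7 CPM of Ncr1.

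The whole list of 14 NK cell markers holds 5 genes of the receptor family (Klra4, Klra8, Klrb1c, Klre1 and Klri2), so it was also summed without them. The other 9 summed to 2.84 to 16.6 CPM in ITD and 2.41 to 155 CPM in WT libraries of NC_CD8 cells. In Esamlo cells they summed to 12.9 to 14.2 CPM in ITD and 40.5 to 62.2 CPM in WT libraries, in Esamhi cells to 1.24 to 10.6 CPM in ITD and 6.14 to 46.0 CPM in WT libraries. C_CD8 cells had 6.03 to 15.1 CPM in ITD and 6.71 to 19.0 CPM in WT libraries, and PDC 1.18 to 7.002 CPM in ITD and 3.64 to 8.97 CPM in WT libraries. Between 0 and 7 of the 9 had no read in a given library. WT libraries reached the highest sum in every subset. Within pairs the sum was lower in ITD, except in batch B of NC_CD8 cells (2.84 CPM in ITD and 2.41 CPM in WT). Apart from that pair, these sums and the genotype moved together. Ncr1 reached at least 5 CPM in 4 libraries, all WT, and leaving these out was chosen as an alternative after the data were seen. Of the WT libraries this fit kept only batch B in NC_CD8 cells and only batch D in Esamhi and Esamlo cells. Klrd1 in NC_CD8 against Esamhi then gave 1.17, against 1.30 with all libraries. Klra17 in Esamhi against Esamlo gave -1.94, against -2.23. For a call lost there, fewer libraries and less NK cell RNA cannot be told apart.

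In ITD against WT no member was called in any subset. In the 25 tests of 1 member in 1 subset 0 passed edgeR's quasi-likelihood test after Benjamini-Hochberg adjustment and 4 had an unadjusted p under 0.05, and DESeq2 called 0 as well. The share of all genes called was 0.0608% in PDC, 0.0166% in C_CD8, 0.31% in NC_CD8, 0% in Esamhi and 0.00553% in Esamlo cells. Averaged over the subsets 0 of 5 members were called (1 at an unadjusted p under 0.05, 0 by DESeq2), beside 0.359% of all genes, and 0 of 5 differed in the ITD effect among subsets (0 at an unadjusted p under 0.05, 0 by DESeq2), beside 0% of all genes. The median of the 5 average log2 differences was -0.02. The libraries of a pair share a batch, and with the pair as a block 1 of 25 was called by subset, 2 of 5 on average and 1 of 5 among subsets.

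That block call was Klrd1 in C_CD8 cells. Klrd1 was higher in the ITD library of all 3 pairs there, by 1.41 (batch B), 0.67 (batch C) and 1.26 (batch D) on the log2 CPM scale (prior count 2). The batch B library of ITD mice, at 27.2 CPM, was the highest, and the 7.63 to 27.2 CPM of ITD libraries overlapped with the 3.85 to 10.1 CPM of WT libraries. With the pair block the rise was called (edgeR, log2 difference 1.16 ± 0.13, adjusted p = 0.00128; 1.23% of all genes called), and without the block it was not (log2 difference 1.23 ± 0.41, adjusted p = 0.621). Klra17, the other member that is scarce in these cells, was also higher in ITD in 3 of 3 pairs, by 1.796, 2.12 and 0.25, and was not called in either fit (log2 difference 1.58 ± 0.56, adjusted p = 0.717; with the block adjusted p = 0.0615). Some lists of markers of other cells were also higher in ITD in C_CD8 cells, and others were not. The 14 T cell markers, of cells some of which carry CD94, summed to 117, 55.2 and 75.9 CPM in ITD (batches B, C and D) and to 64.8, 27.7 and 49.6 CPM in WT libraries, higher in ITD in 3 of 3 pairs. The 8 CD11b+ type 2 markers summed to 111 to 240.4 CPM in ITD and 71.2 to 104 CPM in WT libraries, the 8 PDC markers to 188 to 225 CPM in ITD and 135 to 149 CPM in WT libraries, and the 10 monocyte and neutrophil markers to 158 to 229 CPM in ITD and 69.3 to 125 CPM in WT libraries. Fcer1g, the adaptor gene that is low in C_CD8 cells, had 64.1, 34.9 and 38.5 CPM in ITD (batches B, C and D) and 20.4, 20.6 and 24.3 CPM in WT libraries. The 9 NK cell markers outside the receptor family were lower in ITD in 3 of 3 pairs. They summed to 6.03 to 15.1 CPM in ITD and 6.71 to 19.0 CPM in WT libraries. Red pulp macrophage markers were lower in ITD in batches C and D (244 and 177 CPM, against 344 and 391 CPM in WT). In batch B they were at 127 CPM in ITD and 123 CPM in WT. B cell markers were lower in ITD in batches B and C and higher in batch D. The part of any of these cells in the Klrd1 and Klra17 values was not tested.

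Averaged over subsets with the pair block, Klra17 was called higher in ITD (edgeR, log2 difference 0.51 ± 0.12, adjusted p = 0.0265) and so was Klrd1 (log2 difference 0.25 ± 0.05, adjusted p = 0.0191), beside 6.83% of all genes. Without the block neither was called (log2 difference 0.50 ± 0.24, adjusted p = 0.566 for Klra17; log2 difference 0.26 ± 0.20, adjusted p = 0.803 for Klrd1). Klra17 was higher in ITD in 9 of 12 pairs and Klrd1 in 10 of 12, and 15.4% and 8.13% of all genes were higher in at least as many. With the block the Klrd1 difference was 1.16 in C_CD8, 0.15 in NC_CD8, 0.11 in Esamhi, 0.12 in Esamlo and -0.28 in PDC. Its average thus rests mainly on C_CD8 cells, where Klrd1 is scarce. The pairs that went the other way included both PDC pairs for each gene. In PDC Klra17 was lower in ITD by 0.35 (batch A) and 0.44 (batch B) and Klrd1 by 0.31 and 0.24. For Klrd1 the ITD effect differed among subsets with the block (adjusted p = 0.0401, edgeR), where 0.304% of all genes did. In NC_CD8 cells all 3 ITD libraries lay above all 3 WT libraries for Klra17, as they did for 5.94% of all genes, and neither fit called it (log2 difference 0.49 ± 0.43, adjusted p = 0.910; with the block adjusted p = 0.128).

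Klrk1 showed no common direction, with 6 of 12 pairs higher in ITD and 6 lower. In NC_CD8 cells the 3 ITD libraries lay below the 3 WT libraries, as they did for 5.75% of all genes, with pair differences of -0.70 to -0.34, and the test did not call it (log2 difference -0.52 ± 0.24, adjusted p = 0.642; with the block adjusted p = 0.0984). T cell markers, a list of 14 genes of cells that can also carry NKG2D, moved the same way there, with sums of 85.6 to 102 CPM in ITD and 172 to 246 CPM in WT libraries, and their part in the Klrk1 values was not tested. Klrb1b was lower in ITD in 8 of 12 pairs (26.8% of all genes in at least as many), with no call in any subset. For Klra2 the ITD library was the lower one in 9 of 12 pairs (15.6% of all genes in at least as many), among them all 7 pairs of the NC_CD8, Esamhi and Esamlo subsets. In Esamlo cells, where it is best measured, the reads were 44 and 98 in ITD and 226 and 235 in WT libraries, without overlap, and 17.3% of all genes had both ITD libraries below both WT libraries there. The test did not call it (log2 difference -1.44 ± 0.94, adjusted p = 1). NK cell markers outside the receptor family also summed lower in ITD in these subsets, except in batch B of NC_CD8 cells. Ncr1 was at 1.18 and 0.936 CPM in ITD and 12.3 and 4.58 CPM in WT libraries of Esamlo cells. The part of NK cell RNA in the Klra2 values was not tested. In NC_CD8 cells the fitted ITD difference of Klra2 was -2.86, and 0.60 when the 4 libraries with at least 5 CPM of Ncr1 were left out. The batch B library, with 1 read of Klra2, was then the only WT library of these cells. The ITD libraries had 0, 2 and 2 reads, so the 0.60 rests on counts near 0 and decides nothing.

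**Figure D3:**
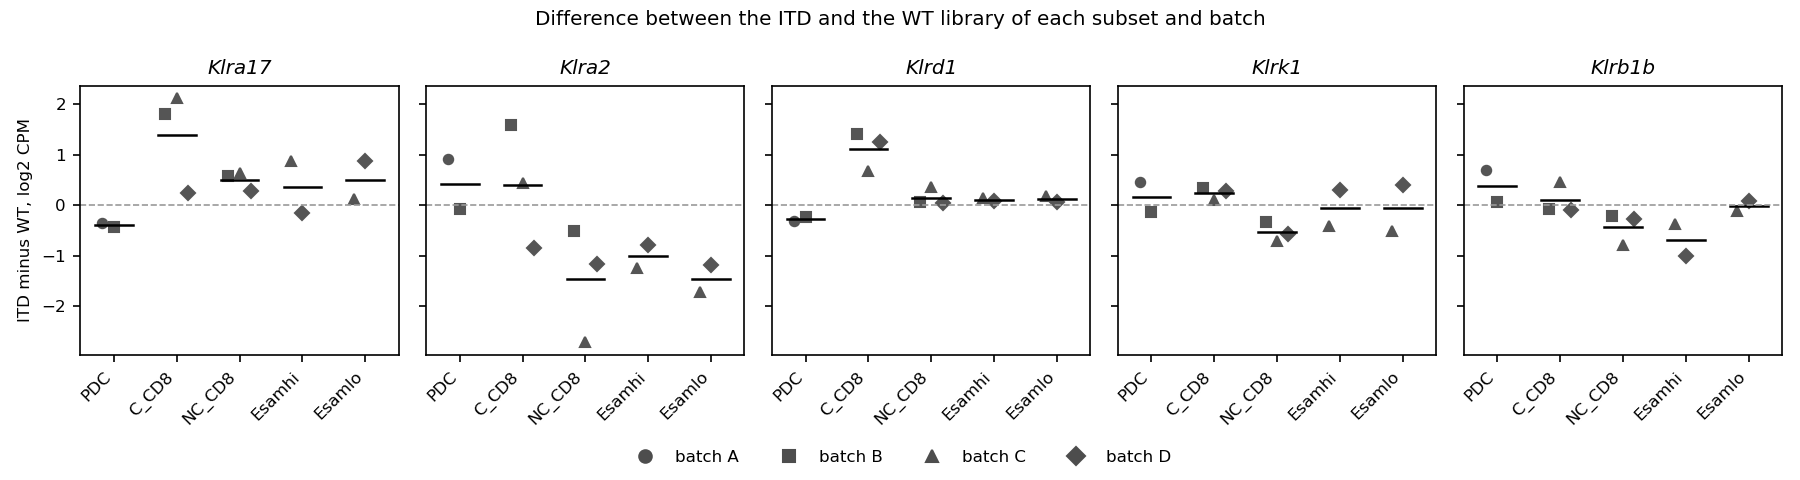
Log2 CPM difference of the ITD minus the WT library (y axis, prior count 2) in each of the 12 pairs, by subset (x axis) and receptor (panel); symbols give the batch, black bars the mean of a subset and the dashed line no difference. Klrd1 and Klra17 are above 0 in the 3 C_CD8 pairs and below 0 in the 2 PDC pairs.

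Of 23 other killer lectin-like receptor genes 22 had a row and 20 passed the filter on low counts. Among subsets 17 of these 20 were called, beside 67.3% of all genes. In NC_CD8 against PDC 16 of 20 were called higher and 0 lower, beside 22% and 20.8% of all genes, with Klri1 (log2 difference 7.23 ± 0.37, adjusted p = 4.45e-11) and Klra3 (log2 difference 6.28 ± 0.66, adjusted p = 7.12e-07) among the largest differences. Klri1 and Klri2 encode receptors that pair with the product of Klre1. They are named here after their values were seen, because outside the 5 members only they exceeded 25 CPM in some library. Among the members Klra2 and Klrb1b did not exceed 14.2 and 23.2 CPM. Klri1 ran at 67.9 to 106 CPM in C_CD8, 54.6 to 111 CPM in NC_CD8, 106 to 135 CPM in Esamhi and 69.6 to 118 CPM in Esamlo cells, against 0.214 to 1.11 CPM in PDC. Klri2 ran at 50.9 to 82.0 CPM in NC_CD8, Esamhi and Esamlo cells, against 8.24 to 25.3 CPM in C_CD8 cells and 5.14 to 10.8 CPM in PDC. Klre1 stayed between 0.393 and 7.04 CPM in all libraries.

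CD94 and NKG2 proteins form pairs, but their RNAs had different distributions. In NC_CD8 cells Klrc1 had 0, 1.08 and 2.06 CPM in ITD (batches B, C and D) and 0.433, 17.1 and 9.99 CPM in WT libraries, where Klrd1 was at 220.0 CPM or more in all 6. Klrc2 had 0.123, 0.908 and 1.53 CPM in ITD and 0.481, 14.6 and 6.91 CPM in WT libraries of these cells. Klrc1 and Klrc2 were high where Ncr1 was high, and in PDC, with 116 to 241 CPM of Klrd1, Klrc1 did not exceed 0.4 CPM. Klrc1 and Klrc2 were named after their values were seen. ITD against WT called 0 of the 20 other receptors in any subset and 0 on average (12 by subset and 10 on average at an unadjusted p under 0.05). Their median log2 difference on average was -1.10, beside -0.00152 over all genes tested. With the pair block 5 of 20 were called lower in ITD on average, namely Klrc1, Klrc2, Klrb1c, Klra8 and Klrg2, beside 6.83% of all genes called in either direction, and 3 of 20 in NC_CD8 cells, Klrc1, Klrc2 and Klra9, beside 4.79% of all genes called there. The NK marker sums given above reached higher values in WT libraries, and their part in these calls was not tested.

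**Figure D4:**
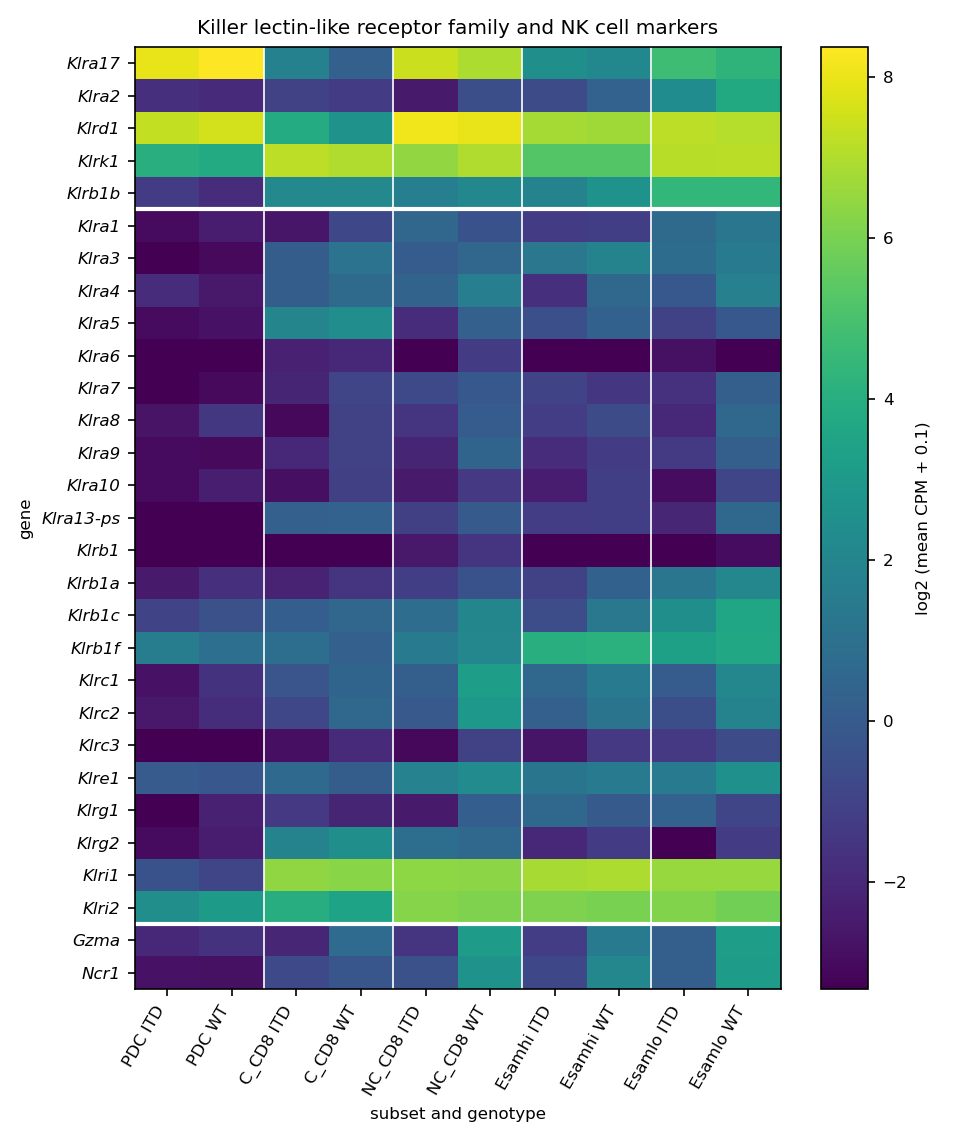
Log2 of mean CPM plus 0.1 (colour) for 5 members (top block), the 22 other receptor genes with a row (middle block) and Gzma and Ncr1 (bottom block) in the 10 groups of subset and genotype, ITD left of WT. Besides the members, Klri1 and Klri2 are brightest, followed by Klrb1f with means over the genotypes of 16.8 CPM in Esamhi and 11.3 CPM in Esamlo cells. Klrc1 and Klrc2 follow Gzma and Ncr1 in being brighter in WT than ITD in NC_CD8, Esamhi and Esamlo cells.

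Adaptors and ligands were measured from lists of 10 signalling partners and 12 ligands. Among subsets 9 of 10 tested partners and 10 of 10 tested ligands were called, beside 67.3% of all genes. Tyrobp, the DAP12 adaptor of activating receptors, ran at 1586 to 1838 CPM in PDC, against 221 to 332 CPM in C_CD8 cells (log2 difference 2.70 ± 0.13, adjusted p = 6.96e-12). Fcer1g ran at 252 to 294 CPM in PDC and 264 to 353 CPM in NC_CD8 cells, against 20.4 to 64.1 CPM in C_CD8 cells. Ptpn6, the phosphatase SHP-1 that inhibitory receptors recruit, was higher in PDC than in C_CD8 cells (log2 difference 2.21 ± 0.15, adjusted p = 1.10e-09). All 3 were also called lower in C_CD8 than in NC_CD8 cells, with log2 differences for NC_CD8 against C_CD8 of 3.35 for Fcer1g, 1.72 for Ptpn6 and 0.62 for Tyrobp. Over the whole list 5 of 10 partners were called higher and 3 lower in PDC against C_CD8 cells, and 4 higher and 2 lower in NC_CD8 against C_CD8 cells, with median log2 differences of 0.43 and 0.10. Of all genes 52.3% were called in PDC against C_CD8 cells and 42.5% in NC_CD8 against C_CD8 cells, in either direction. The partners called lower were Pik3r1, Ptpn11 and Inpp5d in PDC against C_CD8 cells (log2 differences of -1.52, -0.79 and -0.59), and Inpp5d and Ptpn11 in NC_CD8 against C_CD8 cells (-0.72 and -0.25). Hcst, the DAP10 adaptor of NKG2D, was at 4.01 to 12.3 CPM in all libraries.

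Among the ligands, H60b and H60c, which encode NKG2D ligands, were lower in PDC than in C_CD8 cells (log2 difference -2.85 ± 0.26, adjusted p = 5.05e-08 for H60b; log2 difference -3.38 ± 0.52, adjusted p = 3.08e-05 for H60c), and Clec2d, the ligand of NKR-P1B, was higher (log2 difference 1.09 ± 0.27, adjusted p = 0.00256). H2-K1, of the H-2K molecule that Ly49Q binds, and H2-T23, of the Qa-1 molecule that CD94 pairs bind, were chosen after their values were seen. H2-K1 ran at 3111 to 4308 CPM in PDC, against 2032 to 2558 CPM in C_CD8 cells, and H2-T23 at 546 to 743 CPM in PDC, against 342 to 417 CPM in C_CD8 cells. Raet1d and Raet1e, also NKG2D ligand genes, did not exceed 0.481 CPM in any library and were not tested. In ITD against WT edgeR called 0 partners and 0 ligands, in any subset and on average (by subset 3 tests of partners and 5 of ligands, and on average 0 partners and 4 ligands, had an unadjusted p under 0.05). With the pair block, where 6.83% of all genes were called in either direction, 3 of 10 ligands were called higher in ITD on average, H2-K1 (log2 difference 0.26 ± 0.04, adjusted p = 0.00242), H2-D1 (log2 difference 0.28 ± 0.04, adjusted p = 0.00215) and H2-T23 (log2 difference 0.22 ± 0.04, adjusted p = 0.0104). Of the partners the block called Fcer1g higher in ITD C_CD8 cells (log2 difference 1.02 ± 0.16, adjusted p = 0.00820).

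For each member the 3 genes with the highest Pearson correlation of log2 CPM over the 24 libraries were taken from 11385 genes of at least 5 CPM on average (11386 for Klra2). The libraries share batches and depth and cluster by subset, so r describes the sharing of a subset order and has no p. Klra17 was nearest to the heparanase gene Hpse (r = 0.983), Cd209d (0.980), which encodes a C-type lectin, and Maged1 (0.972). Cd209d had medians of 439 CPM in PDC and 314 CPM in NC_CD8 cells and 2.83 CPM in C_CD8 cells. Klrd1 was nearest to S100a6 (0.981), Cybb (0.975), the NADPH oxidase subunit, and Zeb2 (0.971), a transcription factor gene with medians of 302 CPM in NC_CD8 and 12.3 CPM in C_CD8 cells. Klrk1 was nearest to Fam129a (0.925), Arsb (0.921) and Ctbp2 (0.920). Klrb1b was nearest to Tnfrsf1a (0.934), a gene listed only as ENSMUSG00000089672 (0.929) and Timd4 (0.916). Klra2 was nearest to Msrb1 (0.887), Ccl6 (0.879), a chemokine gene, and Fcgr3 (0.859), an Fc receptor gene, and all 3 had their highest median in Esamlo cells. Among the members Klra17 and Klrd1 were alike (0.843) and so were Klrk1 and Klrb1b (0.792), while Klra17 and Klra2 were not (-0.22).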

How the data were processed

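Dendritic cells were sorted from spleen by flow cytometry, their RNA was taken up with PicoPure kits, and SMART-seq v4 low-input chemistry gave the cDNA, per the labels' protocols. Bowtie2 (written as version 0.4), DESeq2 1.8.2, bcl2fastq 1.8.4 and the build mm10 are named, with no order, in the submitters' processing notes. For the read counter, its annotation and its use of strand, the sources used here give nothing. The deposited raw counts per gene are whole numbers, and a deposited table of normalized values was not used. No column of per-sample values was left without a sample.

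The members, gene lists and tests were chosen with earlier results of these data known. Genes were kept by filterByExpr (minimum count 10), scaled by TMM and fitted in edgeR 4.0.16 (R 4.3.3) with 1 mean for each of 10 groups and 14 residual degrees of freedom. Quasi-likelihood F tests were adjusted by Benjamini-Hochberg over 18093 genes. Differences are log2, written ± standard error. The script was tested on simulated counts. The design text calls the replicates independent experiments, and the spread between them includes batch.

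The replicate numbers stand for batches, per the labels. In a check of deviations from group means, the ITD and WT libraries of a pair correlated at r 0.134 to 0.646. With 2 libraries a group (PDC, Esamhi and Esamlo) the deviations mirror each other. There both batches give the same r and the other batch its negative, so the comparison adds nothing. In C_CD8 and NC_CD8 cells r was 0.198 to 0.526 within a batch, against at most 0.148 with another batch. A fit with the pair (ITD against WT) or the batch (subsets) as a block is given where it changes a call. It lowered the common coefficient of variation to 0.141 and 0.174, against 0.317. Other alternatives were RLE scaling, no filter, DESeq2 1.42.0, 1 genotype only, prior counts of 0.5 and 5, leaving out each library, and, chosen after seeing the data, leaving out 4 libraries with at least 5 CPM of Ncr1.

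Named genes are the members, Gzma and Ncr1, at most 4 called genes of a list by size of difference, and the 3 genes most correlated with each member. Others are marked as chosen after their values were seen. Exons were taken from GENCODE M21 and promoters from RefSeq (GRCm38.p6, matched for 4 of 5 members). Counting error alone leaves members with under 30 reads in a library poorly measured.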

Additional observations from a re-analysis of the deposited data

Results flagged for a closer look

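The ITD effect on Klrd1, which encodes CD94, differed among the subsets when the pair of libraries was kept as a block (adjusted p = 0.0401, edgeR quasi-likelihood test), and it was listed here because this is a test of the difference itself. Klrd1 was higher in ITD in 3 of 3 pairs of C_CD8, 3 of 3 of NC_CD8, 2 of 2 of Esamhi and 2 of 2 of Esamlo cells, and lower in 2 of 2 pairs of PDC. Without the block the adjusted p was 1. The block call in C_CD8 cells concerned 27.2, 7.63 and 9.37 CPM in ITD and 10.1, 4.74 and 3.85 CPM in WT libraries of batches B, C and D.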

How the results depend on the processing

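The 5 counts of member calls stayed within 1.5 times under RLE scaling, no filter, DESeq2, the fits without the Ncr1-rich libraries and the 24 fits that each leave out 1 library. So did the 2 counts for subsets, the ones that can be had with 1 genotype only. The replicate block moved the counts for ITD against WT to 1 of 25 by subset, 2 of 5 averaged and 1 of 5 among subsets, against 0 each without it, and it changed no other such call. It raised the genes called for ITD on average to 1236, against 65 (298 by DESeq2, 99 with no filter, 31 without the Ncr1-rich libraries), in NC_CD8 cells to 866, against 56 (227 by DESeq2, 86 with no filter, 19 without the Ncr1-rich libraries), in C_CD8 to 223, against 3 (99 by DESeq2, 13 with no filter, 0 without the Ncr1-rich libraries), in PDC to 45, against 11 (18 with no filter), in Esamhi to 9, against 0 (2 by DESeq2), in Esamlo to 9, against 1 (2 by DESeq2, 0 without the Ncr1-rich libraries), and among subsets to 55, against 0 (54 by DESeq2, 2 with no filter). For Esamhi against Esamlo it gave 2541 genes, against 600 (1064 by DESeq2, 157 without the Ncr1-rich libraries, 119 with WT and 80 with ITD libraries only), for NC_CD8 against Esamhi 5326, against 3339 (1949 without the Ncr1-rich libraries, 1147 with WT and 1666 with ITD libraries only), and against Esamlo 4998, against 2451 (1517, 738 and 1054 in those fits). With WT and with ITD libraries only, genes called fell to 4778 and 5106, against 7758, for NC_CD8 against PDC, to 4528 and 4877, against 7682, for NC_CD8 against C_CD8, to 5541 and 5448, against 8359, for PDC against Esamhi, to 4255 and 3219, against 6704, for C_CD8 against Esamhi, and to 2886 and 1907, against 4984, for C_CD8 against Esamlo. With ITD libraries only they fell to 4800, against 7889, for PDC against Esamlo and to 8092, against 12185, over the 5 subsets.

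Among single members, directions turned mostly in differences that were not called. For ITD against WT, Klrb1b in C_CD8 cells (main difference -0.00497) gave 0.00519 with RLE, 0.00686 with DESeq2 and 0.0715 with the block, and Klrk1 in Esamhi cells (0.00347) gave -0.00466 with no filter, -0.0489 with the block and -0.0869 without the Ncr1-rich libraries. Without those libraries Klra2 in NC_CD8 gave 0.60, Klrd1 in Esamhi -0.0105, Klrk1 in Esamlo 0.193, Klra2 in NC_CD8 against PDC -1.51 and Klrk1 in C_CD8 against Esamlo 0.0430. With the block Klra2 gave -1.80 in NC_CD8 against PDC, 1.03 in PDC against C_CD8 and 0.29 in PDC against Esamhi (called without the block, -2.04), and Klrd1 gave -0.25 in PDC against Esamhi and -0.64 in PDC against Esamlo. With WT libraries only NC_CD8 against C_CD8 gave 0.0174 for Klrk1 and 0.92 for Klra2. With ITD libraries only Klra2 gave -1.34 in NC_CD8 against PDC, Klrb1b 0.27 in C_CD8 against Esamhi and Klrk1 0.0929 in C_CD8 against Esamlo.

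Leaving out 1 library turned uncalled differences within these ranges. For ITD against WT in PDC they were -0.70 to 0.16 for Klrd1, -0.71 to 4.93 for Klra2, -0.30 to 0.59 for Klrk1 and -0.75 to 1.57 for Klrb1b. In C_CD8 cells they were -0.12 to 1.16 for Klra2 and -0.38 to 0.42 for Klrb1b, in Esamhi -0.48 to 0.37 for Klrk1 and -0.00349 to 0.21 for Klrd1, in Esamlo -0.31 to 0.19 for Klrk1 and -0.17 to 0.12 for Klrb1b, and on average -0.126 to 0.0529 for Klrk1 and -0.40 to 0.0668 for Klrb1b. Between subsets they were -0.51 to 2.55 for Klra2 in NC_CD8 against PDC, -0.42 to 0.0123 for Klrb1b in NC_CD8 against C_CD8, -0.61 to 0.0152 for Klrb1b in NC_CD8 against Esamhi, -0.40 to 0.24 for Klrb1b in C_CD8 against Esamhi and -0.16 to 0.0699 for Klrk1 in C_CD8 against Esamlo. The cause of these turns was not tested. Calls between subsets that were lost under some setting are given with each gene above. Others were gained, for Klrd1 in NC_CD8 against Esamlo with no filter and DESeq2, for Klrk1 in NC_CD8 against C_CD8 with ITD libraries only (-0.75), for Klra2 in NC_CD8 against Esamhi without the Ncr1-rich libraries (-3.59) or without the batch C library of WT NC_CD8 cells alone (-2.56), and in PDC against C_CD8 without the batch B library of WT PDC (-3.19). Klra2 outside Esamlo cells, Klrb1b in PDC and Klra17 in C_CD8 cells rest on few reads.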
